A study of Mus musculus with 8 samples.

Results

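The genes described here are the cell cycle and replication genes on the array, chosen by name alone. They are the genes whose symbol in the files starts with Mcm, Cdc, Cdk, Ccna, Ccnb, Ccnd, Ccne, Cenp, Aurk, Plk or Bub, with Mki67, Top2a, Pcna, Rrm1, Rrm2, Birc5, E2f1 and Tyms. The rule found 130 genes, measured by 236 probes, among the 27962 gene names and 41174 noncontrol probes of the array. Oviduct RNA came from adult female CD-1 mice. For 4 samples they were injected with corn oil (control) and for 4 with the soy phytoestrogen genistein (Gen) at 50 mg/kg/day, both on PND1–PND5. Superovulation and mating at 6–8 weeks of age were common to the mice of all 8 samples. Their oviducts were taken on GD2, 48 hr after hCG, and the embryos were removed. The number of mice per array is not stated. Each RNA sample was hybridized alone, with 1 dye, to an Agilent whole mouse genome array. The whole oviduct was used, so epithelium, muscle, stroma and blood were measured together, and a single dose was given. Each slide held the 4 arrays of 1 treatment, and the effects of slide and of treatment cannot be told apart.

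A dividing cell copies its DNA once and then shares the copies between daughter cells. Cyclins bind cyclin-dependent kinases (CDKs) and switch them on in turn: D and E cyclins in G1, cyclin A as DNA is copied, and B cyclins at the entry to mitosis. The Mcm proteins form the helicase that opens origins of replication, and the enzymes of nucleotide supply feed the copying. Aurora and polo-like kinases, centromere proteins and the Bub checkpoint proteins then align and separate the chromosomes. RNAs of late S phase and mitosis are scarce in resting cells, whereas others of these genes, such as Pcna, Cdk4 and Bub3, are also expressed in cells that do not divide. A list of 40 genes, chosen for the first kind of expression or a direct role in replication, is called the core here. It was chosen with earlier results of these data known and leaves out some genes of these kinds, such as Cdc7, Mcm8 and Cdkn3. The other 90 members include CDK inhibitors, subunits of ubiquitin ligases, effectors of the small GTPase Cdc42 and genes that only share the letters of a name.

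The values are processed signals, linear intensities, scaled so that the 75th percentile of the log2 signal was the same on all arrays. Signals given for an array are on this linear scale, and a log2 fold change is the mean log2 signal of the Gen arrays minus that of the controls. Where several probes measured a gene, the one with the highest mean stands for it. Feature Extraction called a signal well above background (detected) for 25359–28934 probes per control array and 29527–31481 per Gen array. Of the 130 members 125 were detected on all 8 arrays and all 130 on at least 4, and no member was saturated on any array. The exceptions were Ccne2, Cdc25c, Cdkn2a, Cdk2 and Cenpm. The 11 markers of the oviduct tissue, among them Ovgp1, Pax8, Foxj1 and Myh11, were each detected on every array.

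Of the 130 cell cycle genes, 2 passed the test between Gen-treated mice and controls. Ccna1, cyclin A1, known chiefly from germ cells, rose, and so did Cdc42ep1, an effector protein of Cdc42. No member was called lower on its brightest probe, while a dimmer probe of Cdc25b and one of Cdc27 were. In limma with Benjamini-Hochberg adjustment over all 41173 probes tested, these 2 of 130 members had an adjusted p under 0.05. Among the probes detected on at least 4 arrays, as all members were, the share of calls was 2.77% for higher and 2.21% for lower signals in Gen-treated mice. Beside these shares the 2 calls are not read as a result about the members. Over all probes the share was 16.2%, but most of those calls were on probes not detected on at least 4 arrays. When the test was run only on those detected probes, which called 0.897% of them, no member remained called (limma; 13 members had an unadjusted p under 0.05, against 10 of 130 with all probes). With all probes in the fit, 4889 of the 29552 detected probes had an unadjusted p under 0.05 (limma). The median log2 fold change was 0.067 over the members and -0.061 over all probes tested. It was 0.021 over the detected probes. The signals of the groups did not overlap for 13 members, 3 higher and 10 lower in Gen-treated mice, and for 12.3% of the detected probes.

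The core genes differed mainly between individual arrays. The groups accounted for a median of 10.3% of the variance of a core gene over the 8 arrays, and for 19.2% over the probes detected on all arrays. Control 1 had the highest of the 4 control signals for 39 of the 40 core genes, and the highest of all 8 arrays for 36. Over all detected probes control 1 was the highest control for 34.1%. For 27 core genes control 1 was at least 2-fold above the mean of the other controls, a gap that 2.7% of the detected probes had. Among Gen-treated mice, Gen 3 was the lowest for 36 of 40 core genes, against 21.2% of the detected probes, and Gen 4 was the highest for 23. The place of Gen 3 depends on the scaling: its 75th percentile before scaling was 3772, against 1908–2432 on the other arrays, and with no scaling Gen 3 was the lowest Gen array for 15 core genes and for 0.761% of the detected probes. No core gene passed the test and no core gene had groups without overlap.

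**Figure D1:**
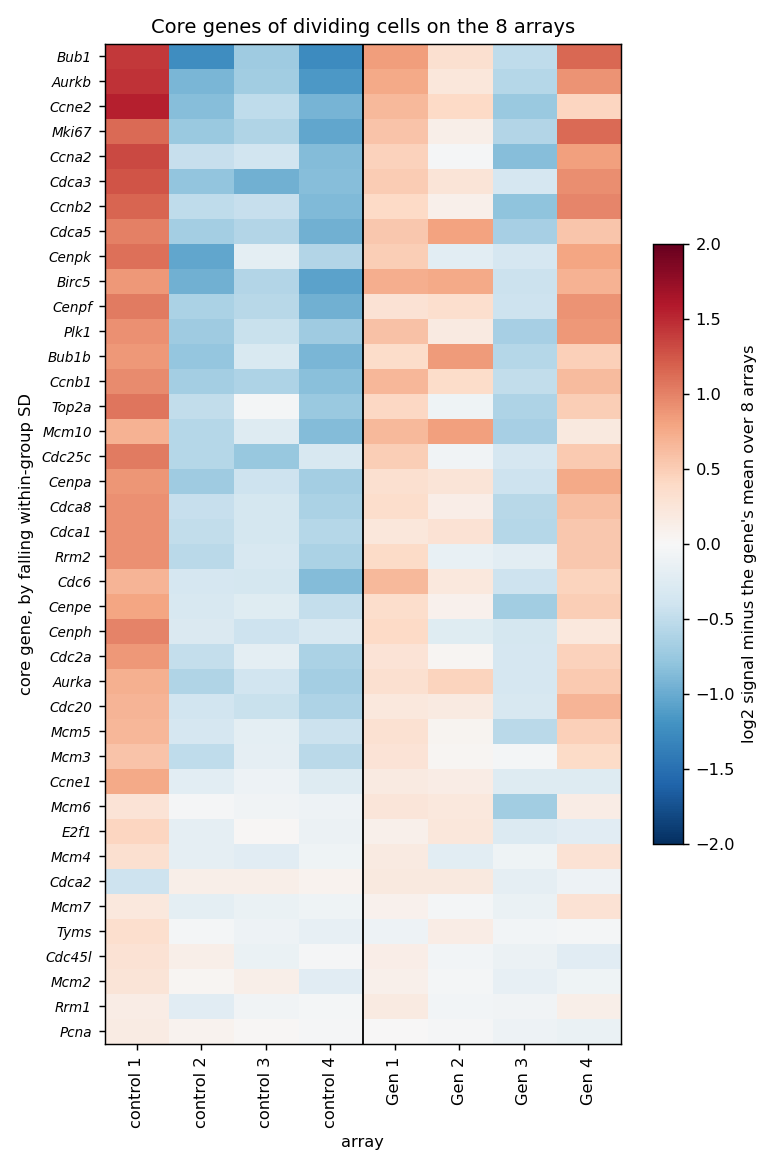
Log2 signal of each of the 40 core genes (rows, ordered by falling SD within groups) on the 4 control and 4 Gen arrays (columns), minus the mean of the gene over the 8 arrays. The column of control 1 is high for every gene but Cdca2, controls 2 to 4 and Gen 3 are low for the genes at the top, and the genes at the bottom, with Pcna last, differ little between arrays.

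A level for each array was taken as the median over the core genes of the log2 signal minus the mean of the gene over all arrays. It was 0.87 on control 1, -0.50 on control 2, -0.33 on control 3 and -0.63 on control 4. On the Gen arrays it was 0.36, 0.15, -0.42 and 0.49. Control 1 thus stood 2.57-fold above the median of the other controls, above every Gen array, while Gen 3 lay between control 2 and control 3. The mean level was -0.15 ± 0.69 (SD, n = 4) in controls and 0.15 ± 0.40 (SD, n = 4) in Gen-treated mice, and the groups overlapped. Over the 24920 probes detected on all arrays the same measure stayed within 0.023 of 0 on each array. In RNA of a whole organ, fewer dividing cells and less RNA per dividing cell cannot be told apart.

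The size of the difference between the groups depended on single arrays. With all arrays the median log2 fold change of the core genes was 0.30, and 33 of 40 were above 0. Without control 1 it was 0.65 and 36 of 40 were above 0, and 19 core genes then had an unadjusted p under 0.05 but none an adjusted p under 0.05 (limma). The share of all probes with such an unadjusted p in that fit was not counted. Without Gen 3 the median was 0.49, and without Gen 4 it was 0.13. Leaving out control 2 or control 4 gave 0.15 or 0.11.

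The genes of mitotic entry had the widest spread of the lists by role, with a median SD within groups of 0.71 on the log2 scale. This list of 9 holds Ccna2, Ccnb1 and Ccnb2, the cyclins of S phase and mitosis, their kinase partner Cdc2a (now Cdk1), the phosphatases Cdc25b and Cdc25c that activate it, and the kinases Plk1, Aurka and Aurkb. None of them passed the test, the median log2 fold change was 0.34 and 8 of 9 were above 0. Aurkb, the kinase of the chromosomal passenger complex, gave signals of 565, 110.3, 128 and 93.9 on control arrays 1 to 4 and 352, 242, 139 and 388 on Gen arrays 1 to 4. Control 1 was 5.14-fold above the mean of the other controls, and Gen 1 and Gen 4 came next. The group difference was a log2 fold change of 0.65 ± 0.60 (SE, with an adjusted p of 0.526 by limma).

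Ccna2 gave 2772, 799.8, 845 and 606 on control arrays 1 to 4 and 1514, 1093, 611 and 1944 on Gen arrays 1 to 4. Gen 1, Gen 2 and Gen 4 lay above controls 2 to 4, and Gen 3 was level with control 4. Its group difference was a log2 fold change of 0.20 ± 0.53 (SE, with an adjusted p of 0.846 by limma). For Ccnb2 the signals were 7023, 2201, 2276 and 1704 on control arrays 1 to 4 and 4135, 3364, 1792 and 6169 on Gen arrays 1 to 4, the same order of arrays. Ccnb1 was measured by 3 probes, whose log2 fold changes were 0.59, 0.77 and 0.84, and control 1 was the highest control on each. Plk1, which drives entry into mitosis, gave 2953, 966, 1151 and 956 on control arrays 1 to 4 and 2369, 1775, 997 and 2855 on Gen arrays 1 to 4. Cdc25b was the exception of the list, with 7395, 4951, 4445 and 5095 on control arrays 1 to 4 and 4286, 3745, 3839.9 and 6098 on Gen arrays 1 to 4: control 1 was again highest, but Gen arrays 1 to 3 were below all controls (log2 fold change, -0.29 ± 0.22 SE, with an adjusted p of 0.442 by limma). Its other 2 probes gave -0.31 and -0.44, and the dimmest was called lower (limma, adjusted p = 0.0395).

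Genes of the chromosomes, the centromere and the spindle checkpoint followed the same arrays. Of 26, none passed the test, 23 had a log2 fold change above 0 (median, 0.27), and control 1 was the highest control for 22. Mki67, the marker of dividing cells used in histology, gave signals of 5999, 1625, 1787 and 1328 on control arrays 1 to 4 and 4065, 2965, 1819 and 5998 on Gen arrays 1 to 4. Control 1 and Gen 4 had nearly equal signals and control 4 the lowest, and control 1 was 3.83-fold above the mean of the other controls. The group difference was a log2 fold change of 0.63 ± 0.54 (SE, with an adjusted p of 0.496 by limma), and a second Mki67 probe gave 0.40. Without Gen 4 the log2 fold change of Mki67 was 0.35 and without control 1 it was 1.11. Top2a, the topoisomerase that untangles copied chromosomes, gave 698, 235, 324 and 198 on control arrays 1 to 4 and 444, 313, 216 and 467 on Gen arrays 1 to 4 (log2 fold change, 0.10 ± 0.42 SE, with an adjusted p of 0.9 by limma).

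Bub1, a kinase of the spindle checkpoint, had the widest spread of all members. Its signals were 499, 79.1, 115 and 78.6 on control arrays 1 to 4 and 333, 234, 132 and 414 on Gen arrays 1 to 4, so that control 1 was 5.59-fold above the mean of the other controls and every Gen array was above controls 2 to 4. The group difference was a log2 fold change of 0.90 ± 0.63 (SE, with an adjusted p of 0.409 by limma). It was 0.63 without control 4, 1.52 without control 1 and 0.42 with normexp background correction. Birc5, or survivin, a partner of Aurkb, gave 7451, 2088, 2717 and 1950.3 on control arrays 1 to 4 and 6779, 6928, 3029.6 and 6624 on Gen arrays 1 to 4. Gen 1, Gen 2 and Gen 4 were within a narrow range close to control 1, and Gen 3 lay near control 3. The group difference was a log2 fold change of 0.88 ± 0.47 (SE, with an adjusted p of 0.271 by limma).

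Further core genes of mitosis were also highest on control 1, with differing orders of the other arrays. Cdca3, a regulator of mitotic entry, gave 2924, 711, 629.6 and 676 on control arrays 1 to 4 and 1735, 1469, 968 and 2346 on Gen arrays 1 to 4, and Cdca5, or sororin, which holds sister chromatids together, gave 2772, 864, 922 and 708 on control arrays 1 to 4 and 2001, 2411, 872 and 2031 on Gen arrays 1 to 4. On both, Gen 3 lay nearest to controls 2 to 4. Cdc20, the activator of the anaphase-promoting complex, gave 9721, 4652, 4470.2 and 3960.4 on control arrays 1 to 4 and 7028, 6900.3, 4854 and 9662 on Gen arrays 1 to 4, and control 1 and Gen 4 shared the top of the range. Cenpa, the histone H3 form of the centromere, gave 581, 192, 235 and 196 on control arrays 1 to 4 and 390.2, 377, 234 and 528 on Gen arrays 1 to 4. Cenpf, a kinetochore protein, gave 3302, 1034, 1095 and 821 on control arrays 1 to 4 and 1954, 2019, 1199.7 and 2971 on Gen arrays 1 to 4. Control 1 exceeded the mean of the other controls by 4.36-fold for Cdca3, 3.35-fold for Cdca5, 2.23-fold for Cdc20, 2.81-fold for Cenpa and 3.38-fold for Cenpf. Bub1b, a checkpoint kinase related to Bub1, gave 596, 193, 265 and 175 on control arrays 1 to 4 and 425, 591, 222 and 454 on Gen arrays 1 to 4, and here Gen 2 reached control 1. Adjusted p-values of these 6 genes in limma were between 0.45 and 0.505.

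Bub3, the checkpoint partner of Bub1 that is also expressed in resting cells, did not have this order of arrays. Its signals were 13359, 13922, 13739.5 and 13234 on control arrays 1 to 4 and 10884, 12093, 10734 and 11381 on Gen arrays 1 to 4, with all Gen arrays below all controls, and the difference of -0.27 ± 0.10 (SE) was not called (limma, adjusted p = 0.111). Cenpt (log2 fold change, -0.36) and Cenpb (-0.24), proteins of the centromere, were also lower on every Gen array than on any control, with adjusted p-values of 0.0632 and 0.195 in limma.

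**Figure D2:**
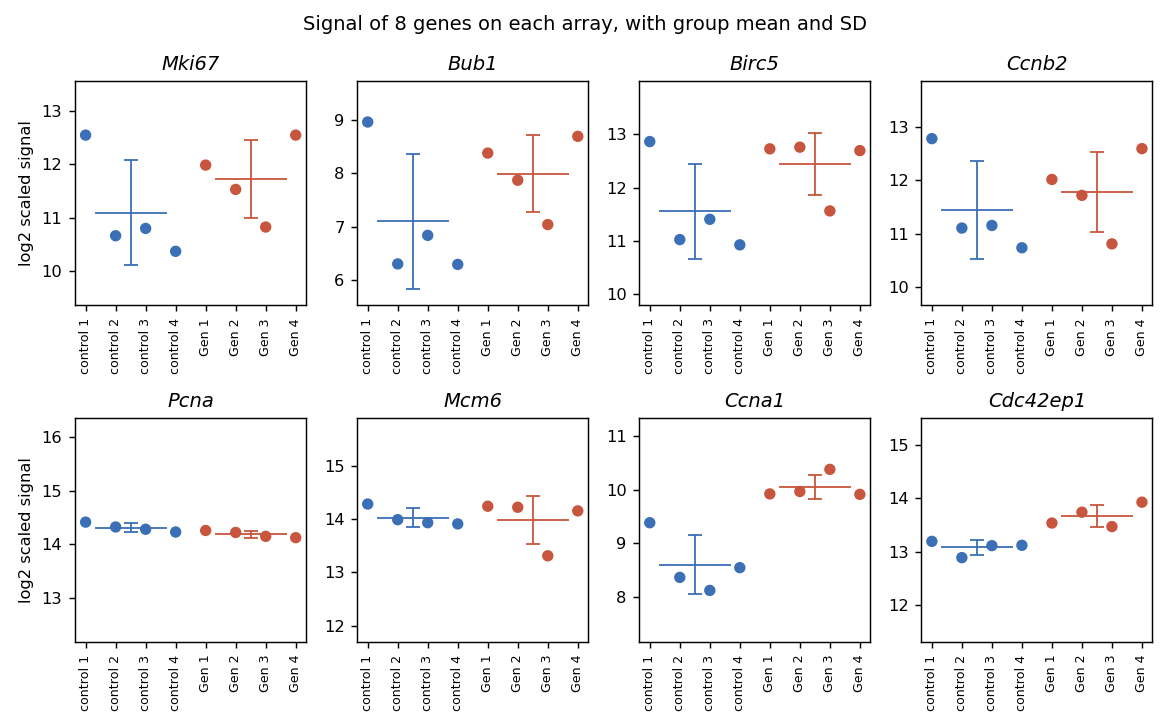
Log2 scaled signal of 8 genes on each array (controls in blue, Gen in red), with the mean and SD of each group of 4 as a bar. All panels span the same number of log2 units. Mki67, Bub1, Birc5 and Ccnb2 are high on control 1 and low on Gen 3, Pcna and Mcm6 move little apart from Mcm6 on Gen 3, and the groups do not overlap for Ccna1 and Cdc42ep1.

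The bases before the transcription start are shown for 5 genes with a wide spread, Bub1, Mki67, Birc5, Ccnb2 and Plk1, and for 2 with a small one, Pcna and Cdk4. Elements known from promoters of cell cycle genes were searched on both strands: TTTGAA (the core of the cell cycle homology region), CCAAT (bound by NF-Y), TTCCCGC and TTGGCGC (forms of the E2F site). The windows come from RefSeq on GRCm38.p6, hold 150 bases each, and read 5′ to 3′ towards the start. They are chr2:127831860-127832009 (minus strand) for Bub1, chr7:135716380-135716529 (minus strand) for Mki67, chr11:117849087-117849236 (plus strand) for Birc5, chr9:70421555-70421704 (minus strand) for Ccnb2, chr7:122159285-122159434 (plus strand) for Plk1, chr2:132253181-132253330 (minus strand) for Pcna and chr10:127063385-127063534 (plus strand) for Cdk4. Capitals mark the elements found.
Bub1: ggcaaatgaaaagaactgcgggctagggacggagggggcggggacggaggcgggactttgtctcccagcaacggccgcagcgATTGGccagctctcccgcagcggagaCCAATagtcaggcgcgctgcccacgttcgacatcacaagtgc
Mki67: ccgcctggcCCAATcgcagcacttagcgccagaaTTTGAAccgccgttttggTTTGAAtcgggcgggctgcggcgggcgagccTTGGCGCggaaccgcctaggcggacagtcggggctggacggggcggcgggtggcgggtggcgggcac
Birc5: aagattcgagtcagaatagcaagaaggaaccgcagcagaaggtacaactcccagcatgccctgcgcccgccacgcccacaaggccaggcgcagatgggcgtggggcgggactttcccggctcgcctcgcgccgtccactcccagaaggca
Ccnb2: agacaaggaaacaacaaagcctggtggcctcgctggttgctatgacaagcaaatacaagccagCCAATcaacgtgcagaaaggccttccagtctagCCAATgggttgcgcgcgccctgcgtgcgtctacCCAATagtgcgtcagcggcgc
Plk1: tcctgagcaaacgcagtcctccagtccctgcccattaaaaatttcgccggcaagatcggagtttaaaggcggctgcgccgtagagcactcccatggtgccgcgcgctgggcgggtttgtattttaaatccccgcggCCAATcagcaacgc
Pcna: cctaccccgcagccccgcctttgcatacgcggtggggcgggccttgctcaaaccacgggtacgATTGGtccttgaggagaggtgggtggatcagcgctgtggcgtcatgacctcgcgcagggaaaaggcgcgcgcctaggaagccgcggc
Cdk4: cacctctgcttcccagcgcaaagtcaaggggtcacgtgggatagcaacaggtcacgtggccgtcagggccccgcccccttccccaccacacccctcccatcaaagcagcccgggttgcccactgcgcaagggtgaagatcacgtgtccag

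Mki67 held 4 elements in this window, of 3 kinds, Ccnb2 held 3 CCAAT boxes, Bub1 held 2, and Plk1 and Pcna held 1 each. The windows of Birc5 and Cdk4 held none of these letters. Within 250 bases before the start, CCAAT was found for 26 of the 34 core genes with a promoter in the table (76.5%), for 41.6% of the 77 other members with one, and for 37.5% of the 27025 genes of the whole table. TTTGAA was found for 23.5% of the core genes and 18.3% of all genes, and both together for 20.6% and 7.34%. TTCCCGC was in 11.8% of core promoters, 14.3% of those of the other members and 4.38% of all, and TTGGCGC in 14.7%, 5.19% and 2.31%. A match of letters is a description of the sequence and was not tested for binding.

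Replication licensing genes moved less than the mitotic genes. Of 12, none passed the test, the median log2 fold change was 0.089, and control 1 was the highest control for 11, at least 2-fold above the others for 2. Mcm10, which helps to load the polymerase at origins, gave 659, 273, 339 and 223 on control arrays 1 to 4 and 636, 714, 258 and 468 on Gen arrays 1 to 4, with control 1, Gen 1 and Gen 2 high and Gen 3 among the lower controls. The group difference was a log2 fold change of 0.50 ± 0.42 (SE, with an adjusted p of 0.484 by limma). Cdc6, the loader of the Mcm helicase, was at least 2-fold higher on control 1 as well (2.3-fold). Mcm6, a helicase subunit, gave 19906, 16244, 15620.0 and 15377 on control arrays 1 to 4 and 19341, 19083, 10167 and 18206 on Gen arrays 1 to 4. Gen 3 was the only array far from the rest, and the group difference was -0.05 ± 0.23 (SE, with an adjusted p of 0.918 by limma). Mcm2, Mcm4 and Mcm7, other subunits of the same ring, had an SD within groups of 0.16, 0.24 and 0.18 on the log2 scale, and Mcm3 and Mcm5 0.39 and 0.47.

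The 4 genes of DNA synthesis fell into a variable and a steady kind. Rrm2, the cell cycle-dependent subunit of ribonucleotide reductase, gave 741, 271, 316 and 254 on control arrays 1 to 4 and 516, 357, 341 and 573 on Gen arrays 1 to 4, with control 1 2.65-fold above the other controls (group difference, 0.29 ± 0.36 SE, with an adjusted p of 0.653 by limma). Rrm1, the subunit that is stable through the cycle, gave 7543, 5829.7, 6497 and 6609 on control arrays 1 to 4 and 7731, 6528, 6449 and 7373 on Gen arrays 1 to 4, with the highest control 1.29-fold above the lowest. Tyms, which makes thymidylate, gave 7266, 5614, 5387 and 5160.2 on control arrays 1 to 4 and 5391, 6379, 5548 and 5634 on Gen arrays 1 to 4. Pcna, the sliding clamp of the polymerases, gave 21828, 20498, 19897 and 19202 on control arrays 1 to 4 and 19587, 19094, 18150.1 and 17840.2 on Gen arrays 1 to 4. Control 1 was the highest control for all 4, by 1.1-fold for Pcna, 1.2-fold for Rrm1 and 1.35-fold for Tyms. None of the 4 passed the test, with log2 fold changes of 0.09 for Rrm1, -0.02 for Tyms and -0.12 for Pcna.

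As a list, the genes of G1 did not follow the order of the core. The level of this list lay between -0.15 and 0.091 on all arrays, and control 1 was the highest control for 3 of 10. These 3, Ccne1, Ccne2 and E2f1, are themselves core genes, and Gen 3 was their lowest Gen array. Ccnd2, a D cyclin, gave 12679, 15019, 12268 and 12479.6 on control arrays 1 to 4 and 10516, 11462, 10186 and 7154 on Gen arrays 1 to 4. All Gen arrays were below all controls, and the difference of -0.43 ± 0.17 (SE) was not called (limma, adjusted p = 0.133). Ccnd1 and Ccnd3, the other D cyclins, had log2 fold changes of -0.31 and 0.02. Cdk4, their kinase, was among the steadiest members, with 7346, 8493, 8276 and 8181 on control arrays 1 to 4 and 7712, 7279, 7314 and 7289 on Gen arrays 1 to 4. E2f1, a transcription factor that switches on S phase genes, gave 638, 417, 477 and 435 on control arrays 1 to 4 and 508, 555, 390.4 and 405 on Gen arrays 1 to 4, with control 1 highest and Gen 3 lowest within narrow limits (group difference, -0.08 ± 0.18 SE, with an adjusted p of 0.824 by limma). Ccne2, an E cyclin, was well above background on control 1 and the 4 Gen arrays and not on the other controls. Control 1 exceeded the mean of the other controls by 5.00-fold for Ccne2 and by 1.93-fold for Ccne1, the other E cyclin.

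**Figure D3:**
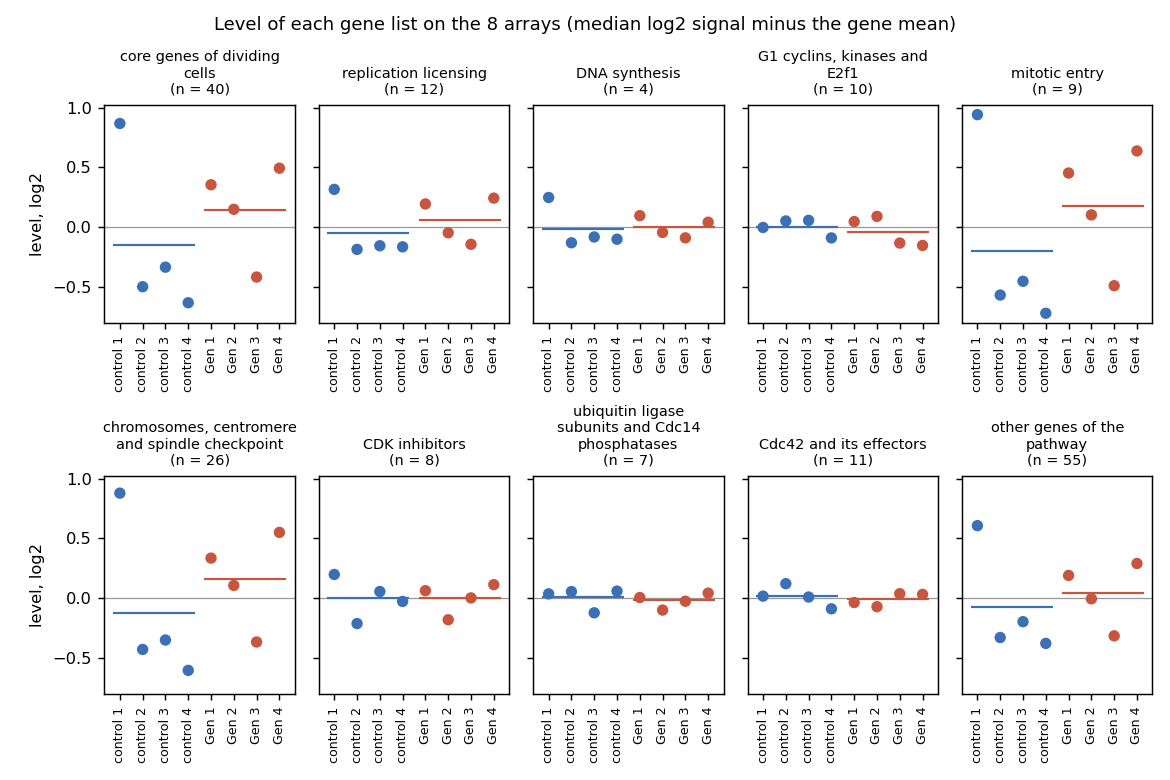
Level of the core list, of 8 lists by role and of other genes of the pathway on each array, as the median over the genes of log2 signal minus the mean of the gene (y axis, log2; control in blue, Gen in red; n, number of genes; bars, group means). The core, mitotic entry and chromosome lists and the other genes of the pathway share one order of arrays with control 1 at the top, and the G1, ubiquitin ligase and Cdc42 lists stay near 0.

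The level of the 8 CDK inhibitors lay between -0.21 and 0.20 on all arrays. None passed the test, and 2 were lower on every Gen array than on any control. Cdkn1c (p57), an inhibitor with a role in cell cycle exit, gave 14672, 13952, 13476 and 12806 on control arrays 1 to 4 and 12254, 5729.5, 10411 and 12540.0 on Gen arrays 1 to 4. Gen 2 was far below the rest, and the group difference was a log2 fold change of -0.49 ± 0.25 (SE, with an adjusted p of 0.247 by limma), and -0.23 without Gen 2. Cdkn2c (p18) was the other, with a log2 fold change of -0.25 and an adjusted p of 0.2 (limma). Cdkn3, a phosphatase that acts on CDK2 and is itself made in dividing cells, followed the core, with 899, 245, 455 and 224 on control arrays 1 to 4 and 404, 335, 206 and 881 on Gen arrays 1 to 4. Control 1 and Gen 4 were close to each other and far above the rest, and the group difference was 0.03 ± 0.56 (SE, with an adjusted p of 0.979 by limma).

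Subunits of the anaphase-promoting complex, the ubiquitin ligase that ends mitosis, were steady. Cdc23 had the smallest SD within groups of the members detected on all arrays (0.045 on the log2 scale), with 8029.9, 7769.6, 7739.7 and 7811 on control arrays 1 to 4 and 7285, 7001, 6886 and 7541 on Gen arrays 1 to 4. All Gen arrays were below all controls, by a log2 difference of -0.13 ± 0.09 (SE) that was not called (limma, adjusted p = 0.43). Cdc16, of the same complex, was higher on every Gen array, with 25641, 22324, 21552 and 23427 on control arrays 1 to 4 and 27805, 27552, 26522 and 31513 on Gen arrays 1 to 4 (log2 fold change, 0.29 ± 0.11 SE, with an adjusted p of 0.134 by limma), but its second, dimmer probe gave -0.18 and overlapping groups. Cdc14a, a phosphatase that opposes CDKs, had the most probes, 5, and gave 10411, 11624, 6164 and 6273 on control arrays 1 to 4 and 8938, 7865, 10673 and 15548 on Gen arrays 1 to 4 on the brightest. The log2 fold change was 0.33 ± 0.29 (SE, with an adjusted p of 0.512 by limma). Controls 1 and 2 were above controls 3 and 4, and Gen 4 was the highest array.

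Among the 3 forms known from the germ line, Ccna1 changed. Its signals were 668, 329, 278 and 373 on control arrays 1 to 4 and 971, 1002, 1335 and 966 on Gen arrays 1 to 4, with all Gen arrays above all controls, and the mean signal was 2.73-fold higher in Gen-treated mice. The log2 fold change was 1.45 ± 0.27 (SE, with an adjusted p of 0.0236 by limma, and of 0.0515 when only detected probes were tested). Its probe lies within chr3:55176600-55177744 on mm7, the build of the array design. Control 1 was the highest control here too, by 2.06-fold, and without it the log2 fold change was 1.71. Aurkc, the meiotic aurora kinase, gave 373, 329.8, 381 and 337 on control arrays 1 to 4 and 615, 909, 304 and 348 on Gen arrays 1 to 4. Gen 1 and Gen 2 were high and the other 6 arrays close together (log2 fold change, 0.48 ± 0.33 SE, with an adjusted p of 0.401 by limma). Ccnb3, a meiotic B cyclin, had the lowest log2 fold change of all members, -0.69 ± 0.29 (SE, with an adjusted p of 0.165 by limma), with 251, 339, 337 and 473 on control arrays 1 to 4 and 225, 133, 208 and 322 on Gen arrays 1 to 4 and overlapping groups. Oocyte and embryo markers also differed between these arrays, with values given below, and their part in the germ line forms was not tested.

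Cdc42 and its effectors shape the actin skeleton and are matched by name only. Cdc42ep1 was the one that rose of 11. It gave 9386, 7598, 8879 and 8919 on control arrays 1 to 4 and 11907, 13706, 11367 and 15609 on Gen arrays 1 to 4, all Gen arrays above all controls, with a control mean of 8669 and a Gen mean of 13045. The log2 fold change was 0.59 ± 0.14 (SE, with an adjusted p of 0.025 by limma, and of 0.0761 when only detected probes were tested), and its second probe gave 0.34. The probe is at chr15:78933773-78933832 on mm7. Cdc42 itself gave 36758, 30466, 31155 and 29642 on control arrays 1 to 4 and 31742, 36679, 33217 and 41585 on Gen arrays 1 to 4 (log2 fold change, 0.16). Cdc42se1, a small effector, gave 12022, 13214, 11960.4 and 12146 on control arrays 1 to 4 and 11076, 11309, 11651 and 11776 on Gen arrays 1 to 4, and its SD within groups of 0.056 was the second smallest.

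Of the 3 polo-like kinases outside mitotic entry, Plk2, a stress-responsive gene, gave 2546, 3674, 5126 and 3257 on control arrays 1 to 4 and 2341, 2201, 2641 and 2800.3 on Gen arrays 1 to 4 (log2 fold change, -0.51 ± 0.21 SE, with an adjusted p of 0.163 by limma). Control 1 was the lowest control and its signal was within the range of the Gen arrays. Plk4, the kinase of centriole duplication, was 2.38-fold higher on control 1 than on the other controls, and its log2 fold change was 0.03. The 37 other genes matched by name, among them Cdk5, Cdk7 and Cdk9, had none called and a median log2 fold change of -0.029, and control 1 was the highest control for 15 of them and at least 2-fold above the others for none.

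The spread between arrays of one group was larger for the core than for most genes. The SD within groups of the log2 signal had a median of 0.57 over the 38 core genes detected on all arrays, which corresponds to a factor of 1.48. It was 0.21 (a factor of 1.16) over the 24920 probes detected on all arrays and 0.21 over the 87 such members outside the core. Of the 38 core genes, 26 were above 0.46, the 90th percentile of all such probes. Of the 87 other members 9 were, close to the share over all such probes (2492 of 24920). They were Cdkn3, Cenpi, Cenpp and Plk4, which are also tied to division, and Aurkc, Cdc42bpa, Cdk5r1, Cdkl4 and Cdkn1b. The highest control exceeded the lowest by a median of 2.92-fold in the core and the highest Gen array the lowest by 2.12-fold, whereas these medians were 1.32-fold and 1.40-fold over all probes detected on all arrays. The SD was larger in controls than in Gen-treated mice for 37 of the 38 core genes detected on all arrays. It was so for 9769 of the 24920 probes detected on all arrays. Without control 1 the median SD of the core fell to 0.38. In this paragraph the SDs describe 4 arrays a group and no variance was tested.

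**Figure D4:**
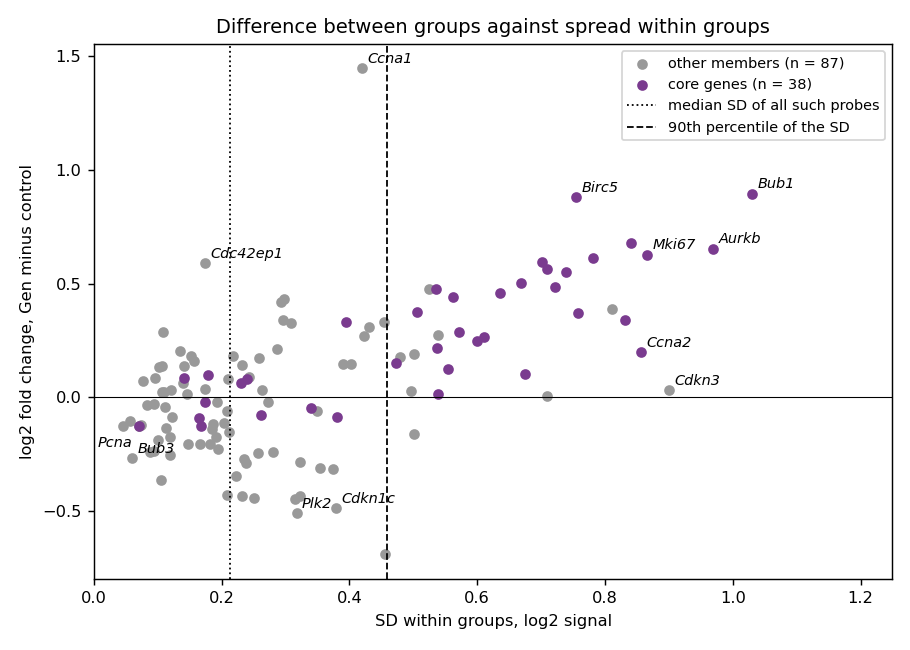
Log2 fold change (Gen minus control, y axis) against the SD within groups of the log2 signal (x axis) for the 125 members detected on all 8 arrays. Core genes (purple) extend to the right, with Bub1 at 1.03, and most lie above 0, while Ccna1 and Cdc42ep1, the 2 called members, lie high with an SD below the 90th percentile of all probes detected on all arrays (dashed line; dotted line, their median).

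The 5 members with the largest SD within groups, of those detected on all arrays, were Bub1 (1.03), Aurkb (0.97), Cdkn3 (0.90), Mki67 (0.87) and Ccna2 (0.86). The 5 with the smallest were Cdc23 (0.045), Cdc42se1 (0.056), Bub3 (0.06), Pcna (0.071) and Cdk4 (0.071). For 6 members 1 probe was spotted 10 times on each array, which gives the spread of single spots within an array. The SD of the spots within an array had a median of 0.061 for E2f1, 0.048 for Cdkn1b, 0.046 for Ccnd1, 0.040 for Cdkn1a, 0.036 for Pcna and 0.18 for Cdkn2a. The SD between arrays of a group exceeded it by 1.95-fold for Pcna and by 3.62-fold to 8.16-fold for the others. The SD between arrays was taken on the average of the spots, so these ratios set averages against single spots. Spots share an RNA sample, a labeling and an array, so the ratios also leave out the error of RNA preparation and labeling.

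Different probes of a gene did not always give the same direction. Of 62 members with at least 2 probes detected on 4 or more arrays, 27 had log2 fold changes of both signs, among them Cdca3 (0.68 on the brighter and -0.05 on the dimmer probe), Cdc42, E2f1 and Plk4. The brightest probe of Cdca2, a chromatin protein of mitosis, had control 1 as the lowest control (1378, 1986, 1997 and 1926 on control arrays 1 to 4 and 2113, 2116, 1628 and 1722 on Gen arrays 1 to 4). Its other 2 probes gave 512 and 149.6 on control 1 and at most 252 and 64.5 on the other controls, as for the rest of the core. Cdk6 had log2 fold changes of 0.42, -0.27 and 0.10 on its 3 probes, none of them called. Cdc27, of the anaphase-promoting complex, had -0.19 on the brighter and -0.68 on the dimmer probe, which was called (limma, adjusted p = 0.0236). Cdca2, Cdk6 and Cdc27 were picked after their values were seen.

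Genes of the same pathway whose names the rule does not match had levels in the same order of arrays as the core. Of 56 such genes, 55 were detected on at least 4 arrays, and control 1 was the highest control for 51 of those and at least 2-fold above the others for 24. Their level was 0.61, -0.33, -0.20 and -0.38 on controls 1 to 4 and 0.19, -0.0051, -0.31 and 0.29 on Gen 1 to 4. None was called higher and 2 were called lower in Gen-treated mice. These were Gins2, a subunit of the replicative helicase, with 2598, 2421, 2355 and 2420.5 on control arrays 1 to 4 and 1896, 1564, 1812 and 1444 on Gen arrays 1 to 4 (log2 fold change, -0.55 ± 0.12 SE, with an adjusted p of 0.0238 by limma), and Orc1 of the origin recognition complex, with a log2 fold change of -0.58 ± 0.14 (SE, with an adjusted p of 0.0253 by limma). Neither was called when only detected probes were tested (limma, adjusted p = 0.0668 and 0.0784). Foxm1, the forkhead factor that drives mitotic genes and is not counted among the members, gave 641, 260.0, 214 and 184 on control arrays 1 to 4 and 338, 352, 218 and 489 on Gen arrays 1 to 4, with control 1 highest and a log2 fold change of 0.24 ± 0.41 (SE, with an adjusted p of 0.756 by limma).

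Markers of other cell types differed between arrays in other orders. The 12 B cell and plasma cell markers, of which 5 were called higher in Gen-treated mice, had their lowest level on control 1 (-1.08) and their highest on Gen 2 (1.46), and their summed signal was 55415–69124 in controls and 92618–122415 in Gen-treated mice. The 15 markers of T cells and natural killer cells had 2 called, and summed signals of 7992–9510 and 6212–9670. The 12 macrophage markers had 2 called, with 153983–230232 and 207030–280798, and control 1 was the lowest array. The 14 cumulus and granulosa cell markers had 5 called and were highest on Gen 1 and Gen 2, with summed signals of 5111–30234 (controls) and 34309–142996 (Gen). These calls stand beside 16.2% of all probes tested, and beside 2.77% called higher and 2.21% called lower of the probes detected on at least 4 arrays. When only detected probes were tested, 2 B cell markers and 1 macrophage marker were called, and no T cell or cumulus marker. Of the markers called at first, Cd8a, Lhcgr and Cyp19a1 were well above background on no control array.

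The 13 markers of oocytes and preimplantation embryos separated arrays by the largest factor. Their level was 0.52, -3.04, 0.13 and -3.14 on controls 1 to 4 and 1.46, 3.12, 0.54 and 0.16 on Gen 1 to 4, and their summed signal was 786–8733 in controls and 8405–55747 in Gen-treated mice. None was called, and 5 of the 13 were detected on all arrays. Control 3 had these markers near the level of control 1 but a core level of -0.33, and Gen 4 had the lowest level of the markers among Gen arrays and the highest core level. Red blood cell markers, 3 of 4 detected on at least 4 arrays, had none called and their lowest level on control 1 (-0.65), with summed signals of 104286–163671 and 124108–262692. The level of the 11 oviduct markers lay between -0.018 and 0.20 on the controls and between -0.25 and -0.096 on the Gen arrays. Pgr alone was called lower, but not when only detected probes were tested (limma, adjusted p = 0.115). The part of these cell types in the core levels was not tested.

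**Figure D5:**
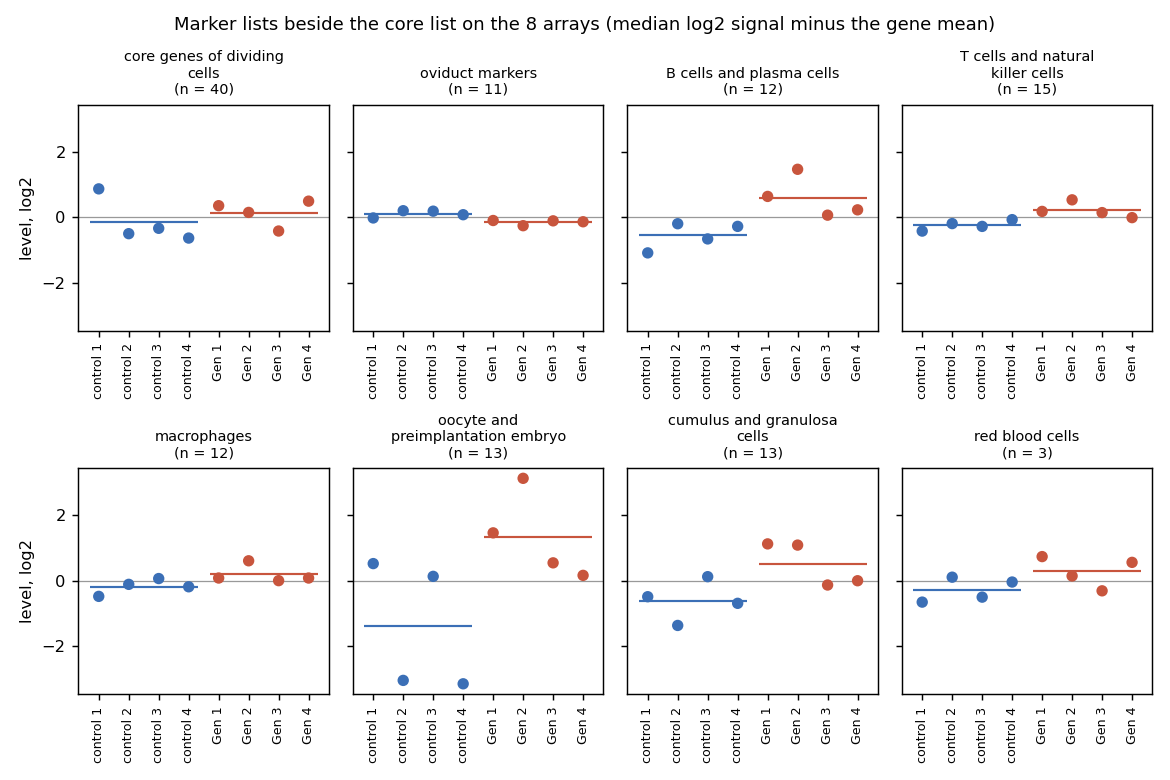
Level of the core list and of 7 marker lists on each array, as the median over the genes of log2 signal minus the mean of the gene (y axis, log2; controls in blue, Gen in red; n, number of genes; bars, group means). Control 1 has the highest level of the core list and the lowest of the B cell, T cell, macrophage and red blood cell lists, and the oocyte and embryo list spans the widest range.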

How the data were processed

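RNA from 4 control and 4 Gen oviduct samples was measured with 1 dye (Cy3) on 1 Agilent array per sample. The study states 1 mouse per replicate for its PCR of adult oviducts and does not state it for the arrays. Sample labels gave the group and replicate number, and the methods of the study gave the dose and times. For each array the authors deposited Feature Extraction 9.5 output, from which the processed signal was used. It is an intensity from which background and spatial trends were removed, and it is not scaled between arrays. The series matrix that was also deposited repeats these intensity values in each of the 45018 spots. The later Rosetta Resolver steps were not applied here.

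Control spots and outlier spots were dropped, replicate spots were averaged as log2 signals, and each array was scaled to a common 75th percentile. Groups were compared by limma 3.58.1 (lmFit and eBayes, under R 4.3.3 and version 1.17.8 of data.table) over 41173 of 41174 probes, with Benjamini-Hochberg adjustment. These steps were tested on simulated data. Figures were made with matplotlib 3.10.9. RefSeq promoter windows (GRCm38.p6) were found for 111 of the 130 members. By the same assembly 8 members have another current symbol, and 20 genes that fit the rule only by their current symbol are not members. Exons are not given, since no genome of the array design's build was used.

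The genes named are those the rule lists one by one, every called member, the 5 with the largest and the 5 with the smallest SD within groups, in each role list the one with the highest signal and the one with the largest log2 fold change, and the member with the most probes. Other genes named, such as those whose promoters are printed, were picked after their values were seen. The members, the lists and the tests were chosen with earlier results of these data known. The results were recomputed with quantile normalization, without scaling, with normexp (offset 50), over detected probes alone, with signals raised to a floor, with outlier spots included, with a robust fit on an intensity trend, with replicate numbers blocked, with all probes of a gene averaged, by the methods' t-test (with Benjamini-Hochberg adjustment) and without each array in turn. The number of arrays limits the precision.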

Additional observations from a re-analysis of the deposited data

Results flagged for a closer look

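In 78 groups of 4 arrays, lists and named genes, the gap between the highest or the lowest array and its nearest neighbour was divided by the range of the group, and 11 passed Dixon's critical value for 4 samples. Chance passes it in about 1 of 20 groups that were not picked by their values. Many of these genes were picked by their spread, signal or change in these data, and the lists share genes, so that rate does not apply here. Control 1 was the array apart, as the highest control, for the level of all members (0.887), of replication licensing (0.939), of DNA synthesis (0.872) and of mitotic entry (0.839). The level of the core list and that of the chromosome, centromere and checkpoint list were tested too and did not pass in either group. Control 3 was apart as the lowest control for the ubiquitin ligase subunits and Cdc14 phosphatases (0.874), and control 2 as the highest for Cdc42se1 (0.846) and Ccnd2 (0.837). Gen 3 was apart as the lowest Gen array for Birc5 (0.946) and Mcm6 (0.906) and as the highest for Ccna1 (0.885). Gen 1 was the highest apart for Cdk4 (0.917), whose 4 Gen signals differ by a factor of 1.06 in all.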

How the results depend on the processing

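The number of members called was 2 with all probes and the same 2, Ccna1 and Cdc42ep1, with outlier spots kept. It was 1 (Ccna1) with no scaling and with normexp, 4 with an intensity trend and a robust fit (Bub3 and Cenpt added) and 5 with the mean of all probes (Bub3, Cdc27 and Cdc42ep2 added). It was 0 with quantile normalization, with the floor, with detected probes only and by the methods' t-test, where 16, 17, 13 and 16 members had an unadjusted p under 0.05. Leaving out 1 array gave 0 to 2: 0 without Gen 1, Gen 2 or Gen 3, 1 without control 1 or control 2, and 2 without the others. No core gene was called under any of these settings. With the replicate number as a block 0 members were called and 8 had an unadjusted p under 0.05. In the fit reported, 10 members had such a p (limma), against 11610 of the 41173 probes tested and 4889 of the 29552 detected ones. These shares were not counted under the other settings. Adjusted calls were 16.2% of all probes in the fit reported, and 0.897% of the detected probes when only those were tested. For the other settings the share of all probes called is not given here. Their counts of members and core genes called, 0 included, are therefore not read as a result about these genes. Deviations of arrays with the same number correlated between -0.18 and 0.11 over probes, so the numbers were not taken to pair the mice.

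The median log2 fold change of the core was above 0 under every setting (0.13 with normexp to 0.54 with no scaling, and 0.11 to 0.65 with 1 array left out). That of all members was 0.31 with no scaling, where the median of all probes was 0.18, and just under 0 with normexp (-0.0035) and with the mean of all probes (-0.037). With no scaling the median SD within groups of the members was 0.40 and the core level of Gen 3 was 0.26. Chosen after the data were seen, a count of the core genes lowest on Gen 3 among Gen arrays was 15 with no scaling and 36 with quantile normalization and with normexp, as in the values reported, and control 1 was the highest control for 39 in each. Without control 1 the median SD of the core was 0.38. Apart from the shift described next, the cause of these differences was not tested.

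Leaving out the scaling adds 0.24, the group difference of the 75th percentiles, to every log2 fold change, and so turned those between -0.24 and 0: Cdc23 to 0.11, Cdc42se1 to 0.13, Cdk4 to 0.12, E2f1 to 0.16, Mcm6 to 0.19, Pcna to 0.12 and Tyms to 0.22. These signs follow from the shift alone. Other log2 fold changes that changed sign were these. With normexp Ccna2 was at -0.0023, Cdc42se1 at 0.0071, Cdkn3 at -0.032, Rrm1 at -0.0064, Top2a at -0.027 and Tyms at 0.027. With quantile normalization Cdkn3 was at -0.0074 and Tyms at 0.00031. With the mean of all probes, dim ones included, Cdc14a was at -0.13, Cdkn3 at -0.38, Rrm1 at -0.50 and Top2a at -0.32. Of 27 named genes 18 moved by more than 1.5 times or changed sign when 1 array was left out, Ccna1 and Cdc42ep1 not among them, and 6 changed sign. Their range was -0.058 to 0.67 for Ccna2, -0.35 to 0.44 for Cdkn3, -0.17 to 0.055 for E2f1, -0.13 to 0.18 for Mcm6, -0.13 to 0.48 for Top2a and -0.076 to 0.089 for Tyms. None of the genes that changed sign was called under any setting.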
